A study of Mus musculus with 3 samples.

Results

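Cytosolic ribosomal proteins are the proteins of the ribosome that translates nuclear-encoded mRNA. They were chosen from the gene symbols of the count files by name: Rpl or Rps followed by a number, at most 1 letter and any further digits, together with Rplp0, Rplp1, Rplp2 and Rpsa. Kinases named Rps6k and pseudogenes named with -ps were left out. No measured value entered the rule, but it was chosen with earlier results of these data known. The rule found 84 of the 24421 gene lines. Of these, 77 are canonical members, 46 of the large and 31 of the small subunit, and 7 are paralogs or copies of a canonical member: Rpl3l, Rpl7l1, Rpl10l, Rpl22l1, Rpl39l, Rps27l and Rps4l. Their genes are spread over 19 chromosomes, with 14 on chromosome 7 and 4 on the X chromosome (Rpl10, Rpl36a, Rpl39 and Rps4x). The ribosomal proteins Fau and Rack1, and the Rpl36a copy Rpl36al, carry other names or letters and lie outside the rule.

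SB28 is a cell line used as a mouse model of glioblastoma, of C57BL/6 background and with brain given as its source. Its RNA was sequenced in 3 libraries of 1 group, each built from total RNA with a TruSeq kit, and no control or treated group was labelled. The labels do not tie the replicates to separate cultures, so SDs and p-values below measure how these samples differ and may hold technical spread alone.

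A ribosome is built from ribosomal RNAs and one protein product of nearly every canonical gene, so these proteins are needed in near-equal numbers. Their mRNAs are among the most translated of growing cells, and most begin with a C followed by a run of pyrimidines, the 5′ terminal oligopyrimidine (TOP) tract, through which mTOR and Larp1 control their translation. Each gene has also left many processed pseudogenes in mammalian genomes. Counts per gene give mRNA levels, not translation or protein.

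Counts assigned to genes totalled 36019009 in replicate 1, 28990128 in replicate 2 and 32632858 in replicate 3. Replicates 1 and 2 lay close together and replicate 3 stood apart: 2.01% of the genes tested differed between replicates 2 and 1, against 64% between replicates 3 and 1 and 62.9% between replicates 3 and 2. Of 5 neural and glioma markers, Vim, Nes and Sox2 were detected and Gfap and Olig2 had 0 counts. All 4 lymphocyte and all 4 erythroid markers had 0 counts, and the 5 macrophage and microglia markers summed to between 0.241 and 0.674 CPM (counts per 1000000 assigned counts). The endothelial cadherin Cdh5 reached 351 ± 42.2 CPM (SD, n = 3), while Pecam1 lay at 0.06 ± 0.0561 CPM.

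Of the 84 members, 77 were detected, meaning 1 CPM or more in all 3 libraries, beside 46.6% of all gene lines. Among canonical members 73 of 77 were detected. In all, 5 members lay below 1 CPM in every library (51.3% of all gene lines did): the canonical Rpl26 and Rpl30 and the paralogs Rpl3l, Rpl10l and Rpl39l. Rpl34 and Rps27 were split between libraries. Members held 4.868% of the counts of replicate 1 (95% Clopper-Pearson interval 4.861 to 4.875), 4.845% of replicate 2 (4.837 to 4.853) and 4.383% of replicate 3 (4.376 to 4.39); the intervals cover counting error only. The share was lowest in replicate 3, outside the intervals of the other libraries. Large subunit members held 2.748% ± 0.15 and small subunit members 1.918% ± 0.124 of the counts (SD, n = 3). No member stood among the 20 genes of highest mean CPM, but 11 were among the top 100 and 60 among the top 500.

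Levels between genes are given as length-scaled CPM, which is CPM per kilobase of all annotated exons of the gene. On the log2(length-scaled CPM + 1) scale the median of the 77 canonical members was 8.194, 8.204 and 8.067 in replicates 1, 2 and 3, against 3.897, 3.866 and 3.841 for the 77 mitochondrial ribosomal protein genes, whose products build the separate ribosome of the mitochondrion. The difference, cytosolic minus mitochondrial, was 4.287 ± 0.056 (SD, n = 3). The median of all 11379 detected genes was 3.081, 3.080 and 3.103. Among detected genes the 90th percentile lay 5.27-fold above the 10th for canonical members, 6.81-fold for mitochondrial ones and 39.3-fold for all genes. Detection kept 73 of the 77 canonical members and left out Rpl26, Rpl30, Rpl34 and Rps27, which lay near 0. All 77 mitochondrial genes were kept. The fold was lower, at 3.48, for the 32 ribosome biogenesis genes described below. With the length of the principal transcript of each gene in place of all exons, the fold was 3.67 for canonical members. It was then 6.84 for mitochondrial and 6.26 for ribosome biogenesis genes. The large minus small subunit difference of medians was −0.085 ± 0.013 (SD, n = 3), and its sign turned without length correction, to 0.07.

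**Figure D1:**
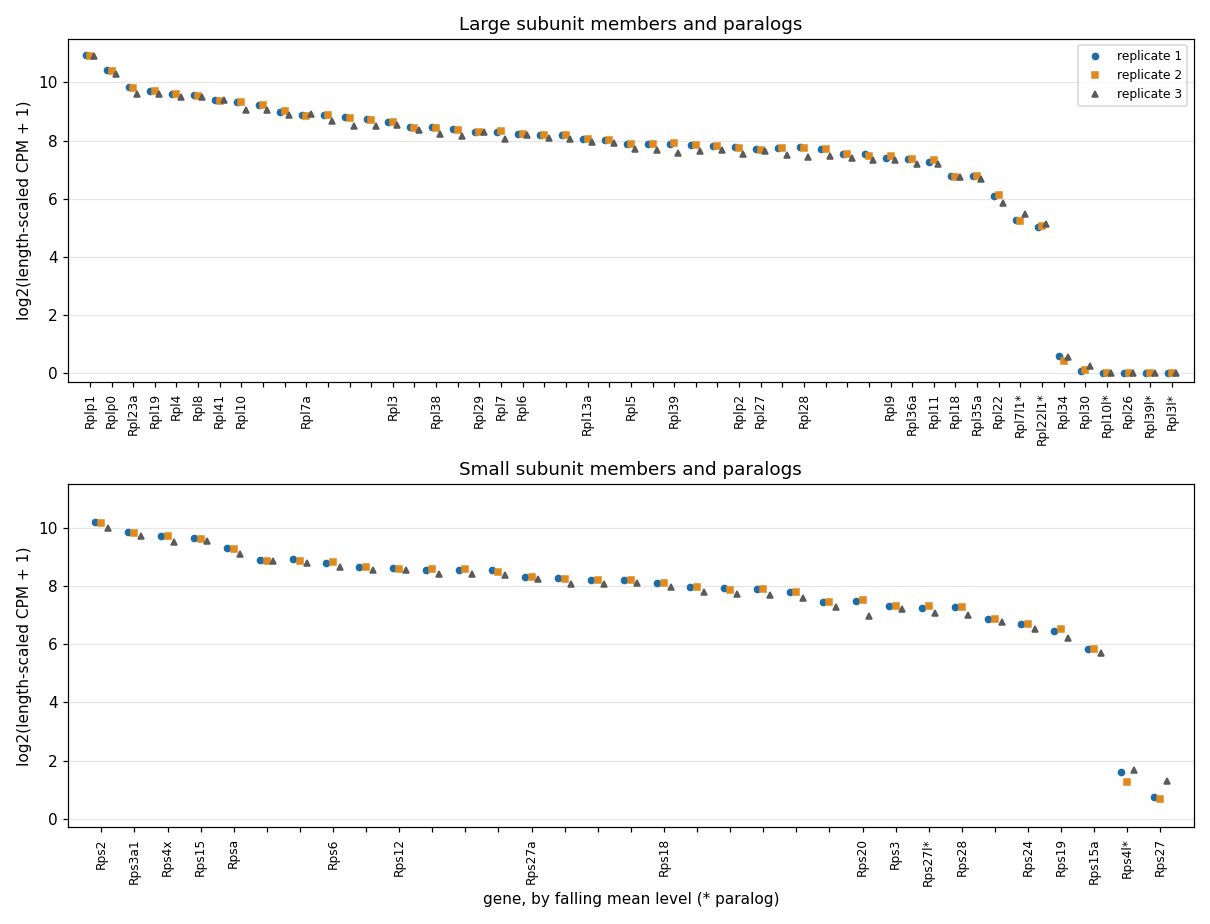
Level of every member in each library, as log2(length-scaled CPM + 1), for large subunit members (top) and small subunit members (bottom), ordered by mean level; genes described in the text are labelled, and an asterisk marks a paralog. Most canonical members lie between 6 and 11 on this scale, while Rpl34, Rpl30, Rpl26 and Rps27 lie below 2, and replicate 3 (triangles) is mostly the lowest symbol.

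By exon length, the highest levels belonged to Rplp1 and Rplp0 of the ribosomal stalk, which recruits translation factors to the large subunit. The stalk protein Rplp1 had 1965, 1937 and 1935 length-scaled CPM in replicates 1, 2 and 3. Its anchor Rplp0 had 1365, 1341 and 1241. Both lay above every other member in each library on this scale. With principal transcript lengths Rplp1 (1946) was followed by Rps2 (1864) and Rplp0 (1607), and by CPM alone Rplp1 (971) lay below Rps2 (2039) and Rpsa (1916). The third stalk gene, Rplp2, was lower, at 206 ± 19.4 length-scaled CPM (SD, n = 3). The log2 ratio of Rplp1 to Rplp0 was 0.57 ± 0.07 and that of Rplp2 to Rplp0 −2.68 ± 0.07 (SD, n = 3); in the stalk, the Rplp1 and Rplp2 proteins pair with each other. Each of these ratios exceeded the replicate spread. With only 3 libraries, the exact two-sided sign-flip permutation test cannot go below p = 0.25, the value of every pair given here. The direction of the Rplp1 ratio rests on length: without the correction it was −1.17, since Rplp1 has 499 exon bases and Rplp0 has 1659.

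Rps2, which lies near the mRNA entry site of the small subunit, followed at 1114 ± 73.2 length-scaled CPM. The mRNA exit protein Rps3a1 (891 ± 48.6), the exit tunnel protein Rpl23a (866 ± 83.4), Rpl19 (813 ± 39.4), the X-linked Rps4x (802 ± 64.9) and Rps15 (782 ± 31.2) came next (SD, n = 3 each). From Rps3a1 to Rps15, neighbours in this order differed by less than the larger of their SDs. The genes share the same libraries, and within each library Rps3a1 lay above Rpl23a and Rpl23a above Rpl19. The order of Rpl19 and Rps4x, and of Rps4x and Rps15, changed between libraries. A further 61 canonical members lay between Rpl4, at 764.8, and Rpl35a, at 106.1 length-scaled CPM.

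Of the 8 lowest canonical members, 4 were low only by comparison. Rps24 (98.5 ± 5.62), Rps19 (84.1 ± 8.91), Rpl22 (64.2 ± 6.71) and Rps15a (54.5 ± 3.49) stood above 50 length-scaled CPM (SD, n = 3 each). Rps19 is the gene most often mutated in human Diamond-Blackfan anaemia, and Rps24 is another of that disease. The place of both in the order came from long annotated exons: with the principal transcript length, Rps19 stood at 509 and Rps24 at 382, whereas Rpl22 at 91.1 and Rps15a at 66 stayed low.

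The other 4 were close to 0. Rpl26, a large subunit protein near the mouth of the exit tunnel, had 0 counts in each library. A limit of 3 counts corresponds to 0.0833, 0.103 and 0.0919 CPM in replicates 1, 2 and 3. That limit holds for reads assigned to Rpl26 and not for its mRNA, since reads with several positions are not counted. Rpl30, a large subunit protein that in yeast controls splicing of its own transcript, had 6, 6 and 18 counts. Rpl34, of the large subunit, had 48, 27 and 40 counts, and the zinc finger protein Rps27, of the small subunit, had 25, 18 and 49. The next canonical member by count, Rpl38, had 6948, 5444 and 5267 counts. They lie on chromosome 11 (Rpl26, 68901583 to 68906989), chromosome 15 (Rpl30, 34440505 to 34443640) and chromosome 3 (Rpl34, 130726831 to 130730398, and Rps27, 90212522 to 90213651; GRCm38), and all are annotated as protein coding.

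Reads with several equally good positions are normally not counted for any gene, so the annotated transcripts of other loci were searched for near-identical sequence. Of the canonical members, 76 of 77 had some of their longest coding transcript matched elsewhere at 95% identity or more over at least 50 bases. The median was 55.9% of the length and the maximum 99.4%. The matched share was 65.8% for Rpl26 (5 other genes, all pseudogenes), 39.3% for Rpl30 (12, all pseudogenes), 14.5% for Rpl34 (8, all pseudogenes) and 67% for Rps27 (5, of which 4 pseudogenes). On this measure the shares lie inside the range of members with high counts. Rplp1 at 99.4%, Rpl36a at 90.7% and Rps18 at 97.3% were matched over more of their length, with levels of 1946, 159 and 267 length-scaled CPM. Over the 77 canonical members the level and the matched share had a Spearman rho of 0.53, a description over genes that share the same libraries. Both values were divided by a length of the same gene. With CPM as the level the rho was 0.30, and with levels by principal transcript length it was 0.64. A further measure counted the words of 50 bases of the principal transcript that occur exactly in another locus. That transcript can be shorter than the longest one, with 345 against 458 bases in Rps27 and 624 against 1232 in Rpl34. The 2 measures are therefore not shares of the same sequence. By words, Rps27 had 98.6%, the highest of the canonical members and above the 93.3% of Rpl9, the next. Rpl26 had 61%, Rpl34 37.9% and Rpl30 29.7%. Rplp1, Rpl36a and Rps18 had 60%, 85.5% and 86.7%, each below Rps27. Of these 4 genes, Rpl30 alone shared exon bases with other annotated genes, over 24.8% of its exon length. What part copies, overlaps or the authors' gene models had in the values near 0 was not tested.

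**Figure D2:**
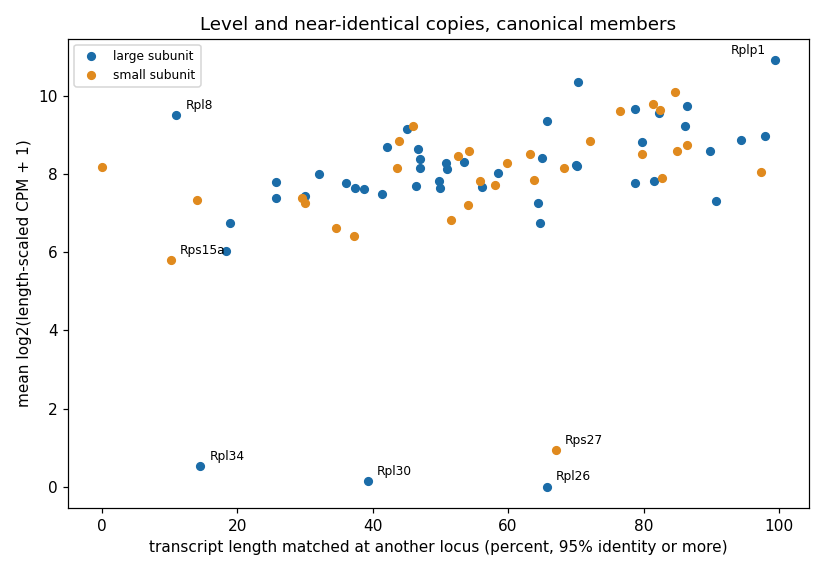
Mean log2(length-scaled CPM + 1) of the 77 canonical members against the percent of their longest coding transcript matched at another annotated locus at 95% identity or more. Each point is a gene. Rpl34, Rpl30, Rpl26 and Rps27 lie near the bottom, at shares inside the range of highly counted members on this measure.

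Lines named for copies of members drew few counts: 9 such lines held 411 counts over the 3 libraries, led by Rps15a-ps4 with 191. Among them is Rps27rt, an annotated copy of Rps27 on chromosome 9, whose line had 0 counts. Its coding sequence was identical to that of Rps27 over all 252 bases. The paralog Rps27l shares 76.2% of those bases, and its longest stretch identical to Rps27 was 11 bases. The first 60 coding bases, from the GENCODE M21 transcripts of GRCm38, show how differently the paralog and the copy relate to Rps27; capitals mark bases that differ from Rps27.
Rps27l: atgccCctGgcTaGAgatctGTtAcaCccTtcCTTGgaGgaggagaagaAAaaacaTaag
Rps27rt: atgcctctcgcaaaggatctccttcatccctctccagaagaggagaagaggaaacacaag
Rps27: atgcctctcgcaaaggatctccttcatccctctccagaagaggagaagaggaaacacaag

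Rps27l, a target of p53 in human and mouse cells, had 151, 159 and 135 length-scaled CPM in replicates 1, 2 and 3, against 0.665, 0.595 and 1.44 for Rps27. The libraries of the 2 genes did not overlap. The log2 ratio of Rps27l to Rps27 was 7.45 ± 0.80 (SD, n = 3), the only one among the paralog pairs in which the paralog's level was the higher under each length tried, and Rps27 rests on 92 counts in all. Since Rps27 shares nearly all of its words with other loci and Rps27l shares 22.4%, the ratio sets a gene with few unique positions in its denominator.

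The other paralogs were below their partners or absent. Rpl7l1, which in human cells takes part in assembly of the large subunit, had 39.6 ± 3.80 length-scaled CPM, against 300.1 ± 27.9 for Rpl7 (SD, n = 3 each). It was 7.58-fold lower, with a log2 ratio of −2.92 ± 0.27. Rpl22l1, whose product can take the place of Rpl22 in the mouse ribosome, had 31.5, 32.3 and 34.4 length-scaled CPM, against 67.3, 68.8 and 56.5 for Rpl22, a log2 ratio of −0.97 ± 0.22. That direction depends on the exon model: with principal transcript lengths the ratio turned to 0.38 and no longer exceeded the spread. Rps4l, annotated as a transcribed processed pseudogene on chromosome 6 at 148354656 to 148355598, had 69, 38 and 68 counts, and lay 431-fold below Rps4x per base (log2 ratio −8.75 ± 0.44, SD, n = 3).

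Rpl3l, known from heart and skeletal muscle, and Rpl10l and Rpl39l, known from male germ cells, had 0 counts in every library. Taking 3 counts summed over the libraries as the floor for each paralog, Rpl3 was at least 20762-fold, Rpl10 at least 20203-fold and Rpl39 at least 6000-fold higher per base than its paralog. Of 5 striated muscle markers 1 was detected (Acta1), and their sum lay between 2.48 and 4.25 CPM. Of 6 male germ cell markers none reached 1 CPM, 4 had 0 counts, and their sum lay between 0.0306 and 0.111 CPM. The coding sequences of Rpl39l and Rpl39 are 85% identical, with a longest identical stretch of 38 bases, and no other annotated transcript matched Rpl39l at 95% identity. Their first 60 coding bases show the close paralog that stayed at 0 beside its counted partner; capitals mark bases that differ from Rpl39.
Rpl39l: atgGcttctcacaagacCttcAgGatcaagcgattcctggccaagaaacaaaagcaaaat
Rpl39: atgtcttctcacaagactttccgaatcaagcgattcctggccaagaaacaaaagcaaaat

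Rpl36al, an autosomal copy of the X-linked Rpl36a that lies outside the symbol rule, had 102 ± 3.53 length-scaled CPM against 159 ± 10.1 for Rpl36a (SD, n = 3 each). The log2 ratio was −0.63 ± 0.14 (SD, n = 3) and −2.33 with principal transcript lengths, lower than Rpl36a under both. The pair is 87.7% identical over the coding sequence, with a longest identical stretch of 24 bases. Of the 10 pairs examined, 7 had counts on both sides, and all 7 log2 ratios exceeded the spread between replicates with exon lengths.

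**Figure D3:**
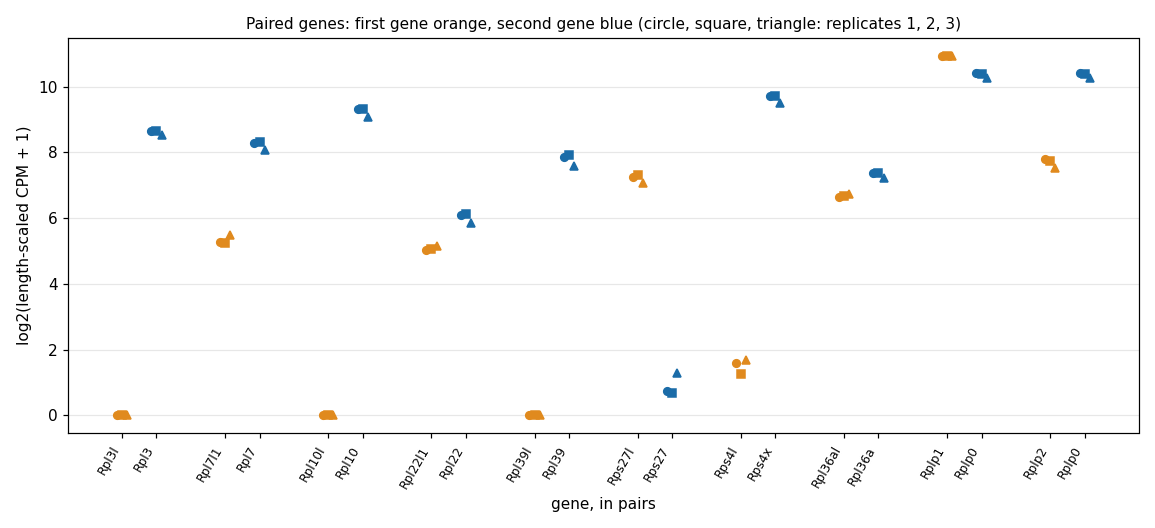
Log2(length-scaled CPM + 1) of both genes of each pair in the 3 libraries, with the paralog or first-named gene in orange and its partner in blue. Rpl3l, Rpl10l and Rpl39l lie at 0, Rps27l lies far above Rps27, and Rplp1 lies above Rplp0.

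Replicate 3 held less mRNA of most members relative to the other counted genes. Counts of the 3 libraries were compared per gene with a chi-square test against counting noise (TMM-scaled library sizes, Benjamini-Hochberg adjusted p under 0.05 over 12737 genes); the test compares these libraries and no conditions. Of 80 members tested, 73 varied (91.2%, all genes 65.7%). The test calls smaller differences in genes with more counts, and 60 members were among the 500 genes of highest mean CPM. The shares of members and of all genes are therefore not compared at like counts. Of the 80, 66 varied and were lowest in replicate 3 (all genes 31.5%) and 6 varied and were highest there (all genes 33.1%). Relative to replicate 1, replicate 3 was lower for 69 members (all genes 31.1%) and higher for 5 (32.8%). Relative to replicate 2, it was lower for 65 (30.6%) and higher for 7 (32.3%). Replicate 2 was lower than replicate 1 for 7 members (all genes 0.863%) and higher for 2 (1.15%).

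The shift was small and shared. The median log2 ratio over tested members was −0.137 for replicate 3 over replicate 1 and −0.131 for replicate 3 over replicate 2, beside 0.001 and 0.003 over all genes tested. It was alike in both subunits, at −0.127 for large and −0.142 for small subunit members over replicate 1. The median log2 range over libraries was 0.155 for detected canonical members, against 0.269 for all detected genes, most of which had fewer counts. When a dispersion of 0.01, a spread between libraries beyond counting noise, was added, 1 member was called (Rps27, 1.25% of those tested, all genes 12.3%). The common dispersion that edgeR estimated from the 3 libraries was larger, at 0.02939. The many calls thus hold against counting noise only. Against counting noise and without replicate 3, 9 members were called (11.4%, all genes 2.01%). The deposited summary lines also set replicate 3 apart: reads outside any gene were 6.54% of its reads, against 5.19% and 5.27% in replicates 1 and 2, and reads with more than 1 position were 9.58%, against 8.93% and 8.86%. Their part in the shift was not tested.

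Among well-counted members Rps20, of the small subunit, moved most. It had 513 CPM in replicate 3, against 728 and 739 CPM in replicates 1 and 2, a ratio of 0.709 to replicate 1. Rpl28 of the large subunit had 314 CPM in replicate 3, against 400 and 395 CPM in replicates 1 and 2. Rpl39, which lines the exit tunnel, had 274 CPM in replicate 3, against 334 and 348 CPM. In each of these genes replicate 3 lay below both other libraries, which stood close together. Rps19 had 347 CPM in replicate 3, against 409 and 426 CPM, and Rps28 had 220.1 CPM, against 269 and 266 CPM, with log2 ranges of 0.29 and 0.28. Rpl30 and Rps27 had larger log2 ranges, 1.74 and 1.28, and were highest in replicate 3, but on 6 to 49 counts a library.

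Some members differed little between libraries. Rplp1 had 966 CPM in replicate 3, against 981 and 967 CPM in replicates 1 and 2, and was not called (adjusted chi-square p = 0.143). Rpl6, Rpl18, Rpl27 and Rpl29 were not called either. Rpl34 and Rps4l were not called but had log2 ranges of 0.52 and 0.68 on 27 to 69 counts a library, which does not show a stable level. Among the called members of smallest log2 range were Rpl41, Rpl8, Rps12 and Rpl7a, at 0.05 to 0.06. Rpl7a was highest in replicate 3, with 855 CPM against 838 and 826 in replicates 1 and 2. Rpl41, which encodes the shortest ribosomal protein, had 785 CPM in replicate 3, against 783 and 764. For Rpl41, replicates 3 and 1 did not differ beyond counting noise (adjusted chi-square p = 0.436). The paralogs Rpl7l1 and Rpl22l1 were also highest in replicate 3. Rpl7l1 had 154 CPM there, against 132 and 129 CPM, and Rpl22l1 had 68.4 CPM, against 62.6 and 64.3 CPM. Rps27l was lowest in replicate 3, with a log2 ratio of −0.15 to replicate 1 and −0.22 to replicate 2.

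Members with roles beyond the ribosome followed the majority. Rpl5 and Rpl11, which with the 5S RNA bind Mdm2 when ribosome assembly fails, had 814 and 397 CPM in replicate 3, against 932 and 412 CPM in replicate 1 and 925 and 432 CPM in replicate 2. Rps6, the target of S6 kinases, had 637 CPM in replicate 3, against 706 and 714 CPM. Rpsa, also described as a laminin receptor precursor, had 1754 CPM in replicate 3, against 2020.3 and 1975 CPM. Rps3, which also acts in DNA repair, had 656 CPM, against 701 and 716 CPM. Rps27a, made as a fusion with ubiquitin, had 591 CPM, against 620.3 and 631 CPM. Rpl13a, part of a translational silencing complex in human macrophages, had 527 CPM, against 564 and 565 CPM. All 7 were called and lowest in replicate 3. Of the genes outside the symbol rule, Fau and Rack1 were also lowest there and Rpl36al was highest: the log2 ratio of replicate 3 over replicate 1 was −0.09 for Fau, −0.19 for Rack1 (listed as Gnb2l1) and 0.10 for Rpl36al.

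**Figure D4:**
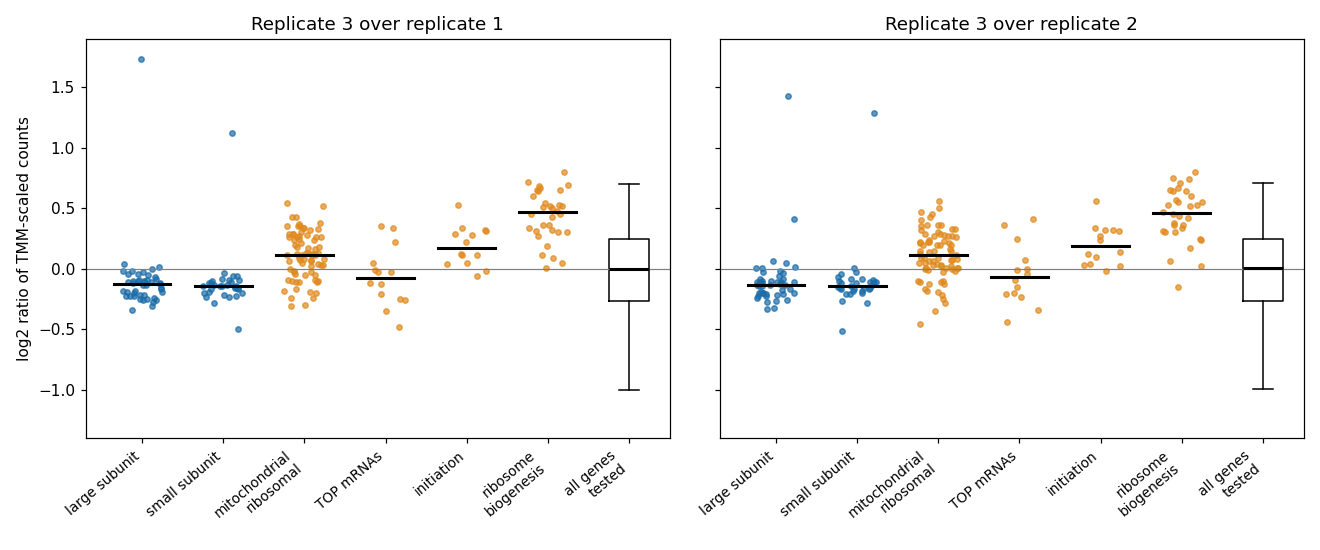
Log2 ratio of TMM-scaled counts, replicate 3 over replicate 1 (left) and over replicate 2 (right), for each tested gene of 6 lists; bars are medians, and the box shows all genes tested (median, quartiles, whiskers to the 5th and 95th percentiles). Large and small subunit members centre near −0.13 and −0.14 on the left, mitochondrial ribosomal proteins at 0.113 and ribosome biogenesis genes at 0.466.

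Other genes of translation did not all shift the same way. The lists were drawn up from textbook roles. Of 77 mitochondrial ribosomal proteins, all detected, 36 were higher and 9 lower in replicate 3 than in replicate 1 (all genes 32.8% and 31.1%), with a median log2 ratio of 0.113. Mrpl12 had 97.4 CPM in replicate 3, against 75.2 and 71 CPM in replicates 1 and 2, while Mrps6, with a log2 range of 0.03, was not called. Of 32 ribosome biogenesis genes 29 were higher and 0 lower in replicate 3 than in replicate 1, with a median of 0.466, and 30 varied and were highest in replicate 3 (all genes 33.1%). Ncl, the nucleolar protein nucleolin, had 1579 CPM in replicate 3, against 1095 and 1090.1 CPM. Nop56, a core protein of box C/D small nucleolar RNPs, had 301 CPM, against 174 and 174 CPM. Nhp2, of box H/ACA RNPs, and Rrp9, of the U3 RNP, had log2 ratios to replicate 1 of 0.69 and 0.68.

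Among 14 initiation genes 11 were higher (78.6%; all genes 32.8%) and 0 lower (all genes 31.1%) in replicate 3 than in replicate 1. Larp1, which binds TOP tracts, had 441 CPM in replicate 3, against 307 and 302 CPM in replicates 1 and 2, and the cap-binding Eif4e had 238 CPM, against 192 and 189 CPM. The 14 other genes known for TOP mRNAs were mixed, with 4 higher, near the share of all genes (32.8%), and 8 lower (all genes 31.1%). Eef1a1, the main elongation factor, had 9006 CPM in replicate 3, against 10792 and 10478 CPM. Tpt1 had 1649 CPM, against 2118 and 2099 CPM, and the initiation factor subunit Eif3f had 138 CPM, against 194 and 189 CPM. Npm1, which also acts in ribosome assembly, had 1382 CPM, against 1095 and 1081 CPM.

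The members also share sequence at their starts, which the symbol rule did not use. RefSeq promoters of GRCm38.p6 were found for 57 of the 77 canonical members and for 68 of the mitochondrial genes. A run of 8 or more C or T bases on the sense strand within 15 bases of an annotated start occurred in 43.9% of the canonical members, against 13.2% of mitochondrial ribosomal protein genes and 13.9% of all 27025 genes with a promoter. On the antisense strand the shares were 5.26%, 10.3% and 15.3%. The windows shown run from 15 bases before the annotated start to 15 bases from it, 5′ to 3′ on the gene's strand, and capitals mark the longest C or T run. They were chosen to set members with a long run beside members with a short one, and to show that Rpl34 and Rps27, near 0 in the counts, carry a run like that of highly counted members.
Rpl4: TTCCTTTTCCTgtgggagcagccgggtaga
Rpl13a: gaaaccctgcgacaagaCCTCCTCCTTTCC
Rps6: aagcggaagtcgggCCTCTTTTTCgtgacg
Rpl34: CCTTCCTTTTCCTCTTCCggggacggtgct
Rps27: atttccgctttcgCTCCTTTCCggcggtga
Rpl26: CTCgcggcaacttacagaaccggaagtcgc
Rplp0: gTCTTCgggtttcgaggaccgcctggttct
Rps28: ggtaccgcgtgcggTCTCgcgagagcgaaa

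The windows lie at chr9:64173372-64173401 (Rpl4, plus strand), chr7:45128731-45128760 (Rpl13a, minus), chr4:86857353-86857382 (Rps6, minus), chr3:130730323-130730352 (Rpl34, minus, the second of its annotated starts), chr3:90213634-90213663 (Rps27, minus), chr11:68901551-68901580 (Rpl26, plus), chr5:115559452-115559481 (Rplp0, plus) and chr17:33824548-33824577 (Rps28, minus). The run is 10 bases in Rps6 and 9 in Rps27, and in both it crosses the annotated start. In Rplp0 it is 5 bases, although Rplp0 is among the highest members. An annotated start can lie some bases from the start used in these cells, which counts per gene do not show.

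Further motifs were searched on both strands from 250 bases before to 50 bases after the start. The ETS-type core CCGGAAG was present in 42.1% of canonical members and 36.8% of mitochondrial genes, against 9.93% of all genes. The Rpl26 window above holds it. AAGATGGC, a YY1-type core, was present in 8.77%, against 17.6% of mitochondrial genes and 3.19% of all genes. The GC box core GGGCGG was present in 61.4%, against 50% and 38.2%, and TATAA in 28.1%, against 14.7% and 28%. A match describes letters and not binding.

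**Figure D5:**
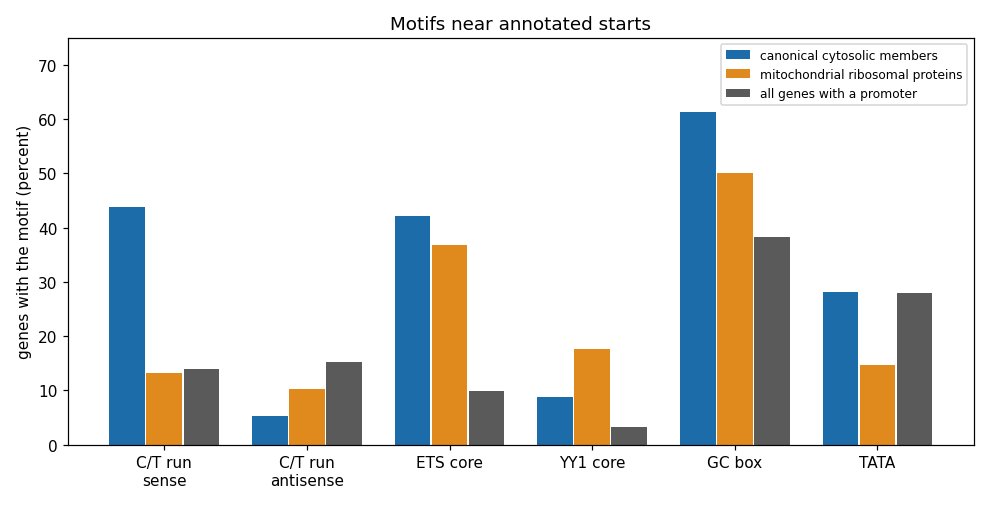
Percent of genes with each motif near an annotated start, for 57 canonical members, 68 mitochondrial ribosomal protein genes and all 27025 genes with a RefSeq promoter. The bars of the sense C/T run (43.9% of canonical members, against 13.2% and 13.9%) and of the ETS core (42.1%, against 36.8% and 9.93%) differ most from all genes.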

How the data were processed

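RNA-seq of SB28 was analysed from the deposited raw counts per gene symbol, made by the authors, 1 file per library with 24421 gene lines and 5 summary lines. Per the submitters' processing notes, Bowtie2 2.2.4, HTSeq and mm10 were used; options, annotation and strand setting are not given in the sources used here, so reads of overlapping or antisense genes cannot be told apart. Summary lines were left out of the totals. Reads with more than 1 position stand in a summary line and enter no gene's count, which can lower genes that have close copies.

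The members and all lists were chosen with earlier results of these data known. Symbols were matched to GENCODE M21 (23350 directly, 650 through synonyms, 421 not). Scaling used edgeR 4.0.16 TMM factors and, as an alternative, DESeq2 1.42.0 size factors (R 4.3.3); the chi-square test (mean count 10 or higher) and all summaries used Python 3.11.15 with scipy 1.17.1. It was tested on simulated data. Level ratios had 0.5 counts added; a ratio counted as larger than the spread where its 3 values had one sign and a mean above 2 SD. Copies were searched with BLAST 2.17.0 in the annotated transcripts of other loci, in place of the genome sequence that had been planned. Replicates 1 and 2 differed by more than counting noise in 256 of 12746 genes and were kept as separate samples.

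Genes named are the 8 canonical members of highest and the 8 of lowest mean level, members below 1 CPM in any library, the genes of the pairs, the 8 called members of largest and the 5 of smallest log2 range, and 7 with known further roles. From the other lists they are among the 4 of highest mean CPM and the 3 of largest range. Rpl4, Rpl6, Rpl18, Rpl27, Rpl29, Rpl35a, Rpl9, Rpl38 and Rps18 were named by place or call after their values were seen. Some genes that meet this rule are not reported here.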

Additional observations from a re-analysis of the deposited data

Results flagged for a closer look

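Signal was present in lines outside the comparisons. Reads placed at more than 1 position, which enter no gene's count, made up 8.93% of the reads of replicate 1, 8.86% of replicate 2 and 9.58% of replicate 3. The 9 lines named for copies of members held 411 counts over the 3 libraries, with Rps15a-ps4 (191), Rps19-ps3 (99) and Rpl37rt (84) highest. How many of the reads placed at several positions came from ribosomal protein genes was not tested.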

How the results depend on the processing

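No paired analysis was possible because the 3 libraries form 1 group. The count of varying members (73) was 71 to 75 under other scalings, no filter or a threshold of 0.01; it was 1 with a dispersion of 0.01 added, and 9 to 74 when one replicate was left out, 9 being without replicate 3. Between replicates 2 and 1 the 9 calls became 2 at 0.01. The share of counts was 5.12% without the 20 genes of highest count in the denominator, and 4.614% to 4.856% leaving out one replicate. The cytosolic minus mitochondrial difference (4.29) was 4.37 with a pseudocount of 0.1, 4.55 with longest transcripts, 3.97 without length correction, 3.93 with means, 4.52 with principal transcripts and 3.43 over the 6 canonical members with under 10% of their 50-base words shared, the last 2 chosen after seeing the data. It was 4.26 to 4.32 leaving out one replicate. The large minus small difference (−0.08) was −0.28 with longest transcripts, 0.07 without length correction, −0.17 with means and −0.23 with principal transcripts. Rpl22l1 over Rpl22 was 0.38 with principal transcripts and Rplp1 over Rplp0 −1.17 without length correction; 6 of 7 ratios exceeded the spread with principal transcripts and 7 under the other settings. The rho of level and matched share (0.53) was also 0.53 at 90% identity and 0.34 at 98% identity. It was 0.64 with levels by principal transcript length, 0.30 without length correction and 0.22 with 50-base words. A sense C or T run of 6 or more occurred in 61.4% of canonical members, against 35.3% of mitochondrial genes and 32.7% of all genes. For a run of 10 or more the shares were 33.3%, 8.82% and 6.25%. The causes of these moves were not tested. Restricting to members under 10% matched at 95% identity was not run, since 1 canonical member remained. Few counts limit Rpl30, Rpl34, Rps27 and Rps4l.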
